A study of Saccharomyces cerevisiae with 12 samples.

Results

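The 10 genes described here encode 7 hexose transporters of budding yeast (HXT1, HXT2, HXT3, HXT4, HXT5, HXT6 and HXT7) and the 3 enzymes that phosphorylate the imported sugar, hexokinase 1 (HXK1), hexokinase 2 (HXK2) and glucokinase (GLK1). They were chosen by gene name and are 10 of the 5798 ORFs, and of the 6198 annotated features, in the profiles. RNA was taken from rpb4Δ cells (RPB4 replaced by HIS3) and from ubp8Δ cells (UBP8 replaced by HIS3). Both strains also carry RPB3, an RNA polymerase II (Pol II) subunit, with a 3xFLAG tag and a NAT marker, and both were grown to mid-log phase in YPD, a rich medium with glucose. RPB4 encodes another Pol II subunit, and UBP8 encodes the enzyme that removes ubiquitin from histone H2B within the SAGA complex. Poly(A) sites were mapped with 3′ READS, which sequences the junction between the RNA and its poly(A) tail, so that each read marks the 3′ end of 1 transcript and levels need no correction for gene length. The authors pooled 2 biological replicates of each strain into 1 profile. No wild-type 3′ READS profile was analysed here, so a difference between the strains cannot be assigned to either deletion.

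Yeast imports glucose by facilitated diffusion through the Hxt proteins. Hxt1 and Hxt3 are low-affinity transporters used when glucose is plentiful, Hxt2, Hxt4, Hxt6 and Hxt7 are of higher affinity, and Hxt5 is known from slow-growing and starved cells. The 2 hexokinases and glucokinase then trap the sugar as hexose 6-phosphate, and Hxk2, the main kinase during growth on glucose, also takes part in glucose repression. The mRNAs of yeast usually end at many nucleotides in a short stretch after the stop codon. Short AU-rich words upstream of these nucleotides, called efficiency and positioning elements, guide the cleavage machinery.

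Depth differed between the profiles. The value of 1 read, found as the common step of the deposited values, was 0.395 RPM (the deposited unit, whose scaling is not given in the sources used here) in rpb4Δ and 0.0614 RPM in ubp8Δ, and the ORF windows, 1 to 400 nt after each stop codon, held 1977160 reads in rpb4Δ and 13034001 in ubp8Δ. The labels matched the deletions: the RPB4 ORF held 0 reads in rpb4Δ (a floor of 1.19 RPM), against 244 in ubp8Δ, and the UBP8 ORF held 12 in rpb4Δ, against 0 in ubp8Δ (a floor of 0.184 RPM). A floor is the level of 3 reads, the most that a count of 0 allows. With 1 pooled profile per strain there was no replicate error and no test. All 95% intervals cover counting error only, and reads without molecular identifiers are not independent molecules.

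HXT1, HXT4 and HXT5 lie on the minus strand of chromosome VIII, with ORFs at chrVIII:290913-292625, chrVIII:287081-288811 and chrVIII:294669-296447 in sacCer3. HXT3, HXT6 and HXT7 lie on the minus strand of chromosome IV, at chrIV:1162957-1164660, chrIV:1159608-1161320 and chrIV:1154216-1155928. HXT2 is on the plus strand at chrXIII:288079-289704, HXK1 on the minus strand at chrVI:253592-255049, HXK2 on the plus strand at chrVII:23935-25395 and GLK1 on the plus strand at chrIII:50838-52340. For 9 of the genes, the sequences around the most used poly(A) sites are shown because the profiles of both strains turn on these nucleotides. They are 30 bases of the 3′ untranslated region in the R64 assembly (RefSeq), written 5′ to 3′ on the coding strand, and a capital marks the nucleotide with the most reads. HXT5 and HXK1 carry 2 capitals, the first for rpb4Δ and the second for ubp8Δ, and HXT6 has a line for each strain.
HXT1, 70 to 99 nt after the stop codon (chrVIII:290814-290843): ggtgatattatattggtgtTaaaacaaaat
HXT2, 95 to 124 nt (chrXIII:289799-289828): aatgatgtttttatttgtaCcactcattta
HXT3, 120 to 149 nt (chrIV:1162808-1162837): ataaaagacattggtacatGatatcaaaca
HXT4, 39 to 68 nt (chrVIII:287013-287042): aaaaataatatttgatcttCaatttttaac
HXT5, 215 to 244 nt (chrVIII:294425-294454): aaatcatcatGacgtttttGttttttttct
HXT6 in rpb4Δ, 352 to 381 nt (chrIV:1159227-1159256): tatgcagggctcacctcggTactgcgcttt
HXT6 in ubp8Δ, 80 to 109 nt (chrIV:1159499-1159528): ttaatgaacccttacgattTatattgtatg
HXT7, 62 to 91 nt (chrIV:1154125-1154154): aattctaattttatattttTaatgatatct
HXK1, 53 to 82 nt (chrVI:253510-253539): attcttatGagtgatgccctTatgtttttt
GLK1, 159 to 188 nt (chrIII:52499-52528): ttaatgaacaatatcatcgGaaacgggcct

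The windows were 65.5% (GLK1) to 73.3% (HXK1) A and T, beside 65.8% over all ORF windows. The efficiency words searched were TATATA and its variants, one of which, TACATA, has a C as the third letter while the other, TATGTA, has a G as the fourth. They act in the RNA, so only the coding strand was searched, and overlapping matches were counted. At least 1 of them stood in 9 of the 10 windows, beside 83.4% of all 5798 ORF windows, and HXT5 was the exception. TATATA stood in 7 windows (60.8% of all), TACATA in 4 (33.9%) and TATGTA in 2 (32.6%). The positioning words AATAAA and AAAAAA stood in 5 (45.2%) and 4 (54.1%). Counted only within 100 nt upstream of the highest ubp8Δ site, an efficiency word preceded the site in 3 of 10 genes, beside 61.4% of 5539 ORFs. Those were HXT3, HXK2 and GLK1. The highest ubp8Δ sites of HXT1, HXT4, HXT6, HXT7 and HXK1 lie fewer than 100 nt after the stop codon, so less of the window precedes them. In HXT6, TACATA began 23 nt before the highest rpb4Δ site, at 371 nt. That site held 10 reads and 373 nt held 9, so which of them leads in rpb4Δ is uncertain. In HXT3, TATATA began 42, 44 and 46 nt before the site, and the positioning word AATAAA began 20 nt before it. All 3 efficiency words preceded the GLK1 site, the nearest being TATGTA, which began 38 nt before it. A match is a description of the letters and not a functional site. The genome has an A right after the most used nucleotide of each gene and strain shown above, except HXT2 in both strains and HXT5 in ubp8Δ. Encoded As next to the tail were trimmed with it before alignment, so a read placed before such As may have ended at any of them. The exact end is thus unresolved over 4 As at the HXT1 site and 3 at the GLK1 site. Over all window reads of the ORFs with enough reads, 84.0% in rpb4Δ and 83.4% in ubp8Δ were placed before an encoded A. For HXT3 these were 99.4% in rpb4Δ and 99.3% in ubp8Δ, and for HXT5 73.4% in rpb4Δ and 53.4% in ubp8Δ.

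In both strains HXT3 was the most abundant of the 10 transcripts, but the genes below it stood in a different order. In rpb4Δ the window signal ran HXT3, HXT2, HXK2, GLK1, HXT5, HXT1, HXT7, HXT6, HXK1 and HXT4. The intervals of HXK2 and GLK1 overlapped slightly there. Those of HXT1 with HXT7, of HXT6 with HXK1, and of HXK1 with HXT4 overlapped more widely, so the order within these pairs is uncertain. In ubp8Δ the order was HXT3, HXK2, GLK1, HXT4, HXT2, HXT1, HXT6, HXK1, HXT7 and HXT5. Of these neighbours, the intervals of HXT2 and HXT1, and of HXK1 and HXT7, overlapped.

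**Figure D1:**
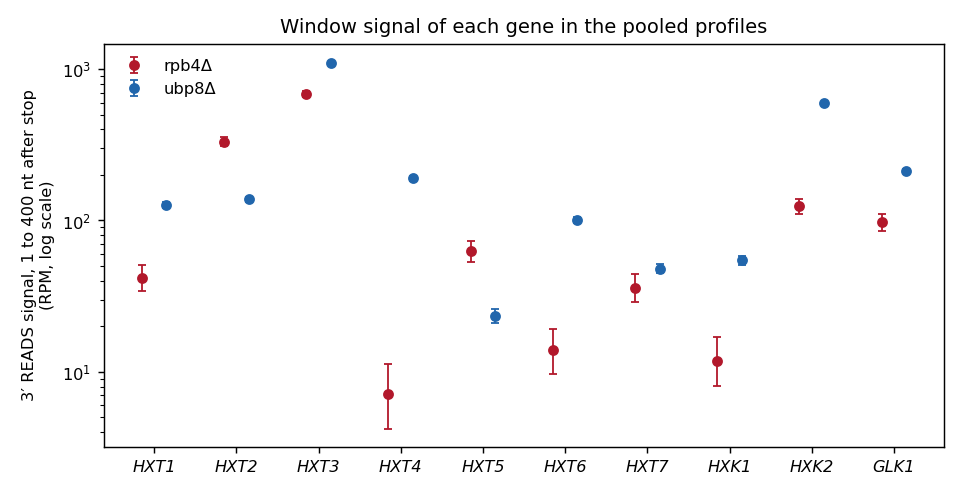
Window signal (RPM, log scale) of each gene in rpb4Δ (red, left of each pair) and ubp8Δ (blue, right), 1 pooled profile per strain. Bars are 95% Poisson intervals of the recovered reads. HXT2 and HXT5 are higher in rpb4Δ, and the other 8 genes are lower.

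Taking at least 20 window reads in both strains as the minimum, 9 of the 10 genes could be compared by size with the 4248 ORFs that met it. Of these 9, the transporters HXT2 and HXT5 were at least 2-fold higher in rpb4Δ, where 19.0% of all ORFs were. The transporters HXT1 and HXT6 and all 3 kinases were at least 2-fold lower in rpb4Δ, where 11.4% of all ORFs were. HXT3 and HXT7 lay within 2-fold. Some of these calls sit near the limit: with ORF reads added, the log2 ratio of HXT2 was 0.95, and by the highest position alone it was 0.98 for HXT5, -0.91 for HXK1 and -0.85 for GLK1. The median log2 ratio of rpb4Δ over ubp8Δ was -1.12 over the 9 genes and 0.15 over all 4248 ORFs. Relative to that shift of all ORFs, every log2 ratio below is lower by 0.15, and the same numbers of these genes, 2 and 5, were past 2-fold. Over all ORFs, 808 were at least 2-fold higher and 485 lower, which became 663 and 612 after scaling to the median ratio and 545 and 684 when reads inside the ORF were added to the window. In bulk RNA, less RNA per cell and fewer cells with that RNA cannot be told apart.

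**Figure D2:**
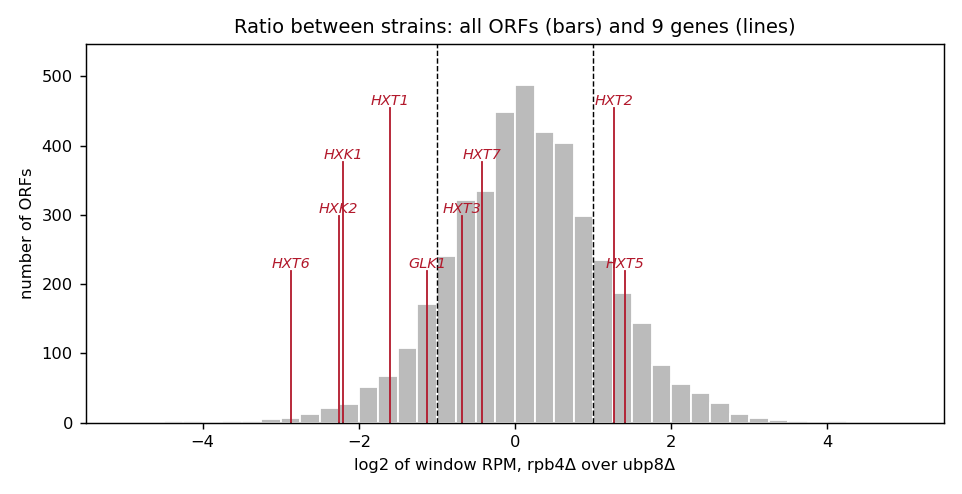
Distribution of the log2 ratio of window RPM, rpb4Δ over ubp8Δ, over the 4248 ORFs with at least 20 window reads in both strains (grey bars, number of ORFs per bin), with the 9 genes that met this minimum as red lines whose height has no meaning. Dashed lines mark 2-fold. HXT6, HXK2, HXK1, HXT1 and GLK1 lie beyond 2-fold on the low side and HXT2 and HXT5 on the high side.

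Among the low-affinity transporters, HXT3 had 685.6 RPM (1734 reads) in rpb4Δ, against 1093 RPM (17792 reads) in ubp8Δ. It was 1.59-fold lower in rpb4Δ (interval 1.52 to 1.68), and made up 58.2% of the summed transporter signal in rpb4Δ and 63.5% in ubp8Δ. HXT1, the other low-affinity transporter, had 41.9 RPM (106 reads) in rpb4Δ, against 127.2 RPM (2070 reads) in ubp8Δ, and was 3.03-fold lower (2.50 to 3.72). Both were thus lower in rpb4Δ, by sizes whose intervals do not overlap.

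The higher-affinity transporters did not move as 1 group. HXT2 had 331.7 RPM (839 reads) in rpb4Δ, against 137.9 RPM (2244 reads) in ubp8Δ, 2.41-fold higher (2.22 to 2.61), and took 28.1% of the transporter signal in rpb4Δ and 8.01% in ubp8Δ. HXT4 had the widest gap of the 10 genes, with 7.12 RPM (18 reads) in rpb4Δ, against 190.0 RPM (3093 reads) in ubp8Δ. Its fold of 26.7 lower (16.9 to 45.1) rests on 18 reads, under the minimum, so it is not counted above. HXT6 had 13.9 RPM (35 reads) in rpb4Δ, against 101.2 RPM (1647 reads) in ubp8Δ, 7.31-fold lower (5.24 to 10.5). Its neighbour and near-copy HXT7 had 35.99 RPM (91 reads) in rpb4Δ, against 48.0 RPM (782 reads) in ubp8Δ, 1.33-fold lower (1.07 to 1.68). In rpb4Δ, HXT7 therefore stood above HXT6, and in ubp8Δ HXT6 stood above HXT7.

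HXT5, the transporter of slow-growing cells, had 62.5 RPM (158 reads) in rpb4Δ, against 23.5 RPM (382 reads) in ubp8Δ. It was 2.66-fold higher in rpb4Δ (2.20 to 3.21). Summed over the 7 transporters, the signal was 1179 RPM in rpb4Δ and 1721 RPM in ubp8Δ.

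All 3 kinases were lower in rpb4Δ, and their summed signal was 233.3 RPM there and 860.2 RPM in ubp8Δ. HXK2 had 123.8 RPM (313 reads) in rpb4Δ, against 592.7 RPM (9647 reads) in ubp8Δ, 4.79-fold lower (4.28 to 5.38). HXK1, whose product is the isoenzyme of Hxk2, had 11.9 RPM (30 reads) in rpb4Δ, against 54.5 RPM (887 reads) in ubp8Δ, 4.59-fold lower (3.20 to 6.85). GLK1, which encodes glucokinase, had 97.7 RPM (247 reads) in rpb4Δ, against 213.0 RPM (3466 reads) in ubp8Δ, 2.18-fold lower (1.92 to 2.49). GLK1 accordingly took a larger part of the kinase signal in rpb4Δ, 41.9% against 24.8% in ubp8Δ, and HXK2 a smaller part, 53.0% against 68.9%.

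The genes around this step were read from lists of the pathway. These lists were chosen with earlier results of these data known, so counts over them are not independent of the data. The 7 measurable genes next to hexose phosphorylation were all at least 2-fold lower in rpb4Δ, beside 11.4% of all ORFs. Phosphoglucose isomerase (PGI1) was 2.48-fold lower, and the phosphofructokinase subunits PFK1 and PFK2 were 3.91-fold and 2.31-fold lower. The phosphoglucomutases PGM1 and PGM2 were 2.31-fold and 4.77-fold lower. The trehalose synthesis genes TPS1 and TPS2 were lower by 5.61-fold and 6.51-fold, TPS1 with 699.4 RPM in rpb4Δ, against 3927 RPM in ubp8Δ. TPS2 had 36 reads in rpb4Δ. The eighth gene of the list, the glucokinase paralog EMI2, had 2 reads in rpb4Δ and 92 in ubp8Δ. The median log2 ratio of the 7 was -1.97.

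Of 8 genes of glucose sensing and induction, such as the sensor gene RGT2 and the repressor gene RGT1, 6 were measurable and all 6 lay within 2-fold, as did 69.6% of all ORFs, with a median log2 ratio of -0.26. Among 12 genes of glucose repression, 10 were measurable, with a median of 0.28, and 1 was higher and 2 were lower by 2-fold, beside 19.0% and 11.4% of all ORFs. SIP1, a β subunit of the Snf1 kinase, was 2.16-fold higher in rpb4Δ, GAL83, another β subunit, was 2.22-fold lower, and CYC8, part of the Cyc8-Tup1 corepressor, was 4.59-fold lower on 22 reads in rpb4Δ and 653 in ubp8Δ. None of the other 10 transporter genes of the family reached the minimum: HXT10 had the most, 1 read in rpb4Δ and 26 in ubp8Δ, and HXT8, HXT11, HXT13, HXT15 and HXT16 had 0 reads in either. In the windows of HXT11, HXT15 and HXT16, 391, 400 and 400 of the 400 positions end in 17 bases found elsewhere in the genome. Reads cannot be placed there.

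Both strains shared the most used nucleotide in 7 of the 10 genes, and in 6 of the 9 with enough reads, which is near the 60.5% of all ORFs. By the highest sum over 11 nt, which takes neighbouring nucleotides together, the numbers were 5 of the 10 and 4 of the 9, beside 48.4% of all ORFs. The weighted average position differed by less than 10 nt in 8 of the 9 genes with enough reads, beside 60.8% of all ORFs, and HXT6 was the exception. In HXT4, with 18 reads in rpb4Δ, it was 52.9 nt in rpb4Δ and 64.4 nt in ubp8Δ. The median overlap of the profiles, the percent of window reads placed alike by both strains, was 71.6% over the 10 genes and 65.7% over all ORFs. The overlap was lowest in HXT6, 36.4%, and HXK1, 46.8%. Few reads lower it by sampling alone, and these genes had 35 and 30 reads in rpb4Δ.

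**Figure D3:**
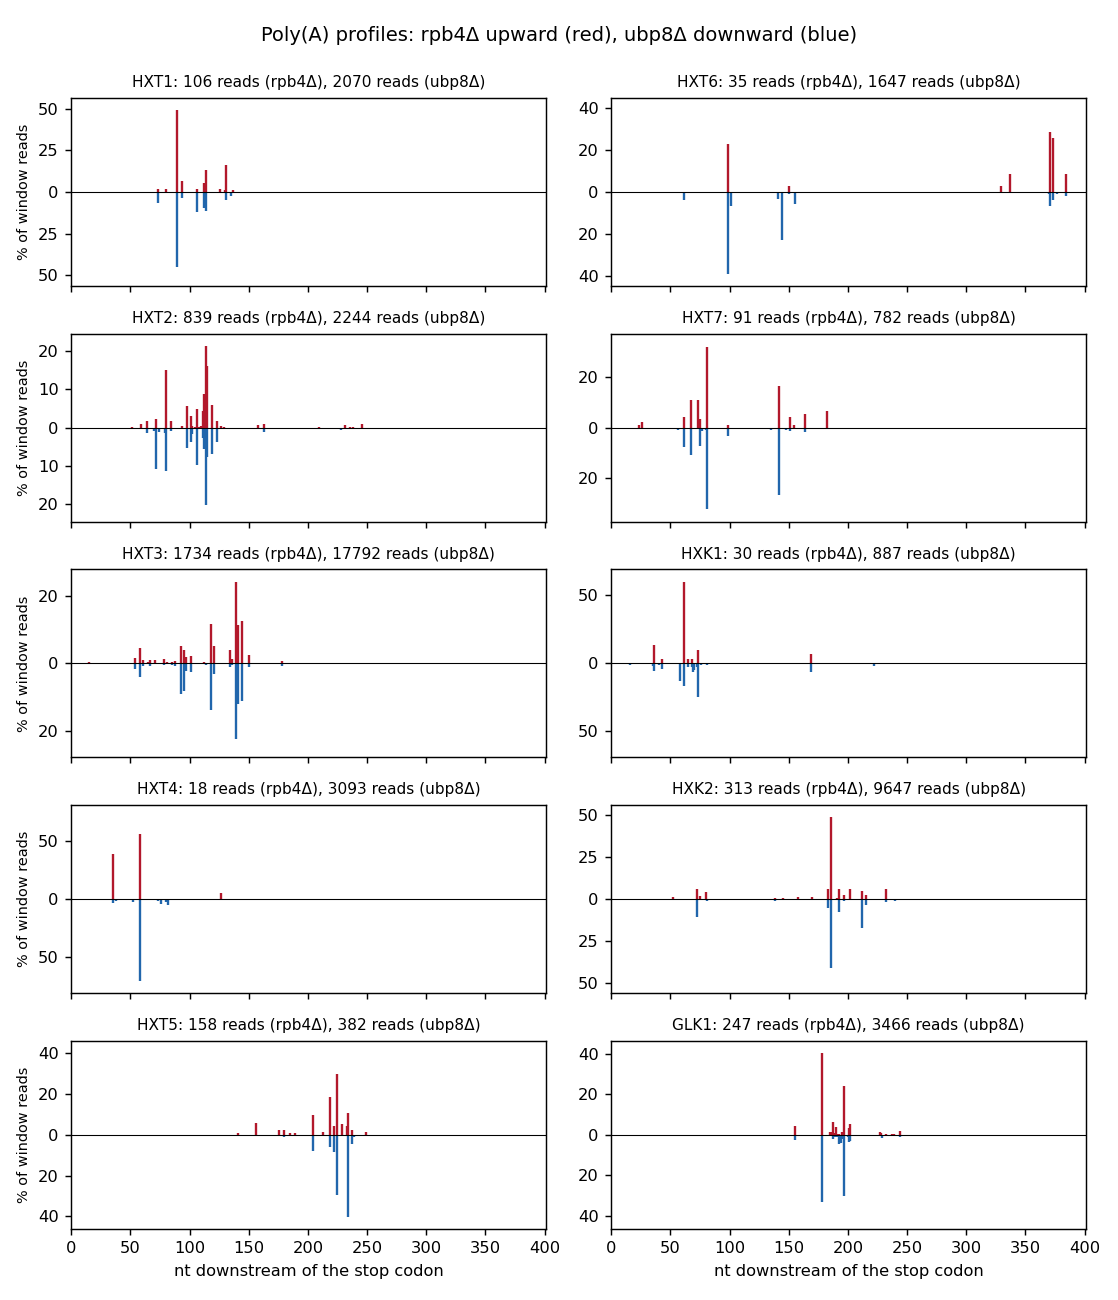
Percent of window reads at each nucleotide 1 to 400 nt after the stop codon for the 10 genes, with rpb4Δ drawn upward in red and ubp8Δ downward in blue; vertical scales differ between panels. The most used nucleotide is shared in 7 genes, and HXT6 differs, with 74.3% of its rpb4Δ reads beyond 300 nt against 15.5% of its ubp8Δ reads.

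HXT3 had the most alike profiles of the 10, with an overlap of 86.0%, and also the most window reads in both strains. Its highest site at 139 nt held 24.2% of the reads in rpb4Δ (22.2% to 26.2%) and 22.5% in ubp8Δ (21.9% to 23.1%), and the weighted average position was 121.0 nt in rpb4Δ and 119.4 nt in ubp8Δ. The sites between 93 and 101 nt held 13.4% of the rpb4Δ reads and 22.2% of the ubp8Δ reads, and those between 134 and 150 nt held 55.7% in rpb4Δ and 48.6% in ubp8Δ, with intervals that do not overlap. Such clusters join sites of at least 1% of the reads in either strain that lie within 10 nt of the next, a rule added after the profiles had been seen.

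HXT1 ended most often at 89 nt in both strains, with 49.1% of the reads in rpb4Δ and 44.8% in ubp8Δ. Its cluster from 106 to 114 nt held 20.8% of the reads in rpb4Δ (14.1% to 29.4%) and 33.3% in ubp8Δ (31.3% to 35.4%). The cluster beyond it, from 126 to 135 nt, held 18.9% in rpb4Δ (12.6% to 27.3%) and 7.54% in ubp8Δ (6.48% to 8.75%). More of the HXT1 reads thus lay at the far end in rpb4Δ, while the most used nucleotide stayed in place. HXT2 had the least used top site of the 10 genes in either strain, with 21.3% of the rpb4Δ reads and 20.1% of the ubp8Δ reads at 114 nt. Its cluster from 64 to 84 nt held 21.0% of the reads in rpb4Δ (18.4% to 23.9%) and 28.6% in ubp8Δ (26.7% to 30.5%), and the main cluster from 98 to 123 nt held 72.8% in rpb4Δ and 66.8% in ubp8Δ. HXT4 ended mostly at 58 nt, with 55.6% of its 18 reads in rpb4Δ and 70.1% of its reads in ubp8Δ, the highest top share of the 10 genes in ubp8Δ. The nearest AATAAA began 22 nt before that site.

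HXT5 differed in which site led. The site at 225 nt was highest in rpb4Δ, with 29.7% of the reads there and 29.6% in ubp8Δ. The site at 234 nt was highest in ubp8Δ, with 40.1% there and 10.8% in rpb4Δ. Next to it, 233 nt held 7 reads, 4.43%, in rpb4Δ only. The second site in rpb4Δ was 219 nt, with 18.4% (13.1% to 25.1%), against 5.76% (3.83% to 8.57%) in ubp8Δ. A site further upstream, at 156 nt, held 9 reads, 5.70%, in rpb4Δ (3.03% to 10.5%) and 1 read, 0.262%, in ubp8Δ (0.0462% to 1.47%). The weighted average was 216.4 nt in rpb4Δ and 226.1 nt in ubp8Δ, a difference of -9.71 nt that stays just inside the 10 nt taken as a shift.

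HXK2 had a proximal cluster, 72 to 81 nt, with nearly equal summed shares, 12.5% in rpb4Δ and 12.6% in ubp8Δ, and a main cluster, 183 to 215 nt, with 76.4% in rpb4Δ and 78.8% in ubp8Δ. Single sites of the proximal cluster differed. The site at 72 nt held 6.07% (3.92% to 9.29%) in rpb4Δ and 10.5% (9.88% to 11.1%) in ubp8Δ. At 80 nt there were 14 reads, 4.47% (2.68% to 7.37%), in rpb4Δ and 3 reads, 0.0311% (0.0106% to 0.0914%), in ubp8Δ. The next nucleotide, 81 nt, went the other way, with 1 read, 0.319%, in rpb4Δ and 118 reads, 1.22%, in ubp8Δ. Much of the contrast at 80 nt thus lies between neighbouring nucleotides. Within the main cluster the site at 186 nt led in both, with 48.6% in rpb4Δ (43.1% to 54.1%) and 41.1% in ubp8Δ (40.1% to 42.1%). The site at 212 nt in the same cluster held 4.79% (2.93% to 7.76%) in rpb4Δ and 17.4% (16.7% to 18.2%) in ubp8Δ. GLK1 likewise kept its pair of main sites, 178 nt with 40.5% in rpb4Δ and 33.5% in ubp8Δ, and 197 nt with 24.3% in rpb4Δ and 30.2% in ubp8Δ. HXK1 was led by 61 nt in rpb4Δ, with 60.0% of its 30 reads (42.3% to 75.4%), and by 73 nt in ubp8Δ, with 24.6% (21.9% to 27.5%).

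HXT6 was the 1 gene of the 9 whose weighted average differed by at least 10 nt, being 300.03 nt in rpb4Δ and 156.6 nt in ubp8Δ, a difference of 143.4 nt with a standard error from counting of 20.02 nt. Over all ORFs, 18.3% lay at least 10 nt downstream in rpb4Δ and 20.9% at least 10 nt upstream. Beyond 300 nt the sites held 26 reads in rpb4Δ, 74.3% of the window (57.9% to 85.8%), and 255 reads in ubp8Δ, 15.5%. In RPM these distal sites had 10.3 in rpb4Δ and 15.7 in ubp8Δ, and the sites from 1 to 300 nt had 3.56 in rpb4Δ and 85.6 in ubp8Δ. The strains thus differed far more before 300 nt than after it, and over positions 1 to 300 alone the difference of the averages was -12.4 nt, on 9 reads in rpb4Δ.

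HXT6 and HXT7 are near-copies, and the repeated windows limit what could be placed. The authors placed a read by its last 17 bases and only where these occur once in the genome. In the HXT6 window 46 of 400 positions, and in the HXT7 window 47, end in 17 bases that occur elsewhere, and 40 of them are shared by the 2 windows at the same positions, within the first 86 nt after the stop codon. Those 86 nt differ at 3 positions, T11C, C56T and G68A, where positions are counted from the first base after the stop codon and the HXT6 base comes first. The stretch from 54 to 83 nt, shown because it holds the last 2 differences and the sites that the genes share in position, reads as follows, with the bases that differ in capitals.
HXT6 (chrIV:1159525-1159554, minus strand): tgCactctaattctGattttatatttttaa
HXT7 (chrIV:1154133-1154162, minus strand): tgTactctaattctAattttatatttttaa

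Where a base told the copies apart, the reads of HXT6 and HXT7 were distributed differently. In the first 86 nt HXT6 had 0 reads in rpb4Δ, which allows a share of up to 9.89%, and 76 reads in ubp8Δ (4.61% of its window). HXT7 had 59 reads there in rpb4Δ (64.8%) and 489 in ubp8Δ (62.5%). At 61 nt, a site of both copies, HXT6 had 0 reads in rpb4Δ and 60 in ubp8Δ, and HXT7 had 4 in rpb4Δ and 61 in ubp8Δ. The highest HXT7 site, 81 nt, had 29 reads in rpb4Δ and 254 in ubp8Δ, and held 0 reads of HXT6 in either strain. At both sites the 17 bases that place a read differ between the copies by 1 base.

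**Figure D4:**
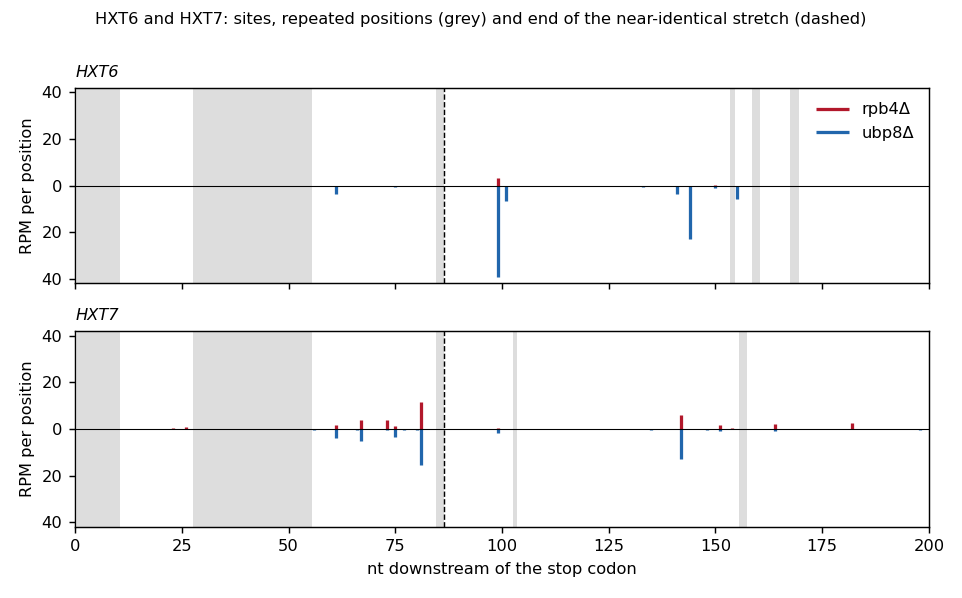
Reads at each nucleotide (RPM) in the first 200 nt after the stop codon of HXT6 and HXT7, rpb4Δ upward in red and ubp8Δ downward in blue; grey marks positions whose 17 bases occur elsewhere in the genome, where no read can be placed. The dashed line marks the end of the 86 nt that differ at 3 positions: HXT7 has 59 reads there in rpb4Δ, and HXT6 has 0.

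The other windows were largely unique: GLK1 had 28 repeated positions, HXT5 15, HXK1 13, and HXT1, HXT2, HXT3, HXT4 and HXK2 had 1 to 5 each, none of them shared with another of the 10 windows. In all, 163 of 4000 positions (4.08%) were repeated, beside 5.31% over all ORF windows, and no repeated position held a read. Neighbouring ORFs enter 4 of the windows, MSR1 in HXT4 and GID7 in GLK1 on the same strand, and RPN12 in HXK1 and RTG2 in HXK2 on the opposite strand. From where each begins, 263 to 323 nt after the stop codon, there were 0 reads in either strain.

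Fewer sites were seen in rpb4Δ in 9 of the 10 genes, beside 85.1% of all ORFs, and HXT5, with 16 sites in rpb4Δ and 13 in ubp8Δ, was the exception. HXT3 had 34 sites in rpb4Δ and 50 in ubp8Δ, HXK2 had 22 in rpb4Δ and 45 in ubp8Δ, and GLK1 had 19 in rpb4Δ and 42 in ubp8Δ. Taken to the rpb4Δ number of reads, the ubp8Δ profile would show 38.9 sites in HXT3, 24.8 in HXK2 and 25.3 in GLK1, which is nearer to the rpb4Δ counts than the full ubp8Δ counts are. This expectation treats reads as independent draws. The rpb4Δ count was below it in 8 of the 9 genes with enough reads, beside 66.2% of all ORFs, by 0.21 sites in HXT1 and by up to 6.31 sites in GLK1. HXT5 went the other way, with 16 sites in rpb4Δ and 9.93 expected in ubp8Δ.

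Reads inside the ORF mark 3′ ends upstream of the stop codon. For HXT6 and HXT7 the share cannot be read, because 1668 of the 1713 ORF positions of each are repeated. Of the other 8 genes, 6 had a smaller share in rpb4Δ, beside 75.3% of all ORFs, and 2 a larger one, beside 22.2%. The median share over all ORFs was 3.38% in rpb4Δ and 11.7% in ubp8Δ, so a smaller share in rpb4Δ was general. GLK1 had 2 ORF reads, 0.803% of its ORF and window reads (0.221% to 2.88%), in rpb4Δ, against 1408 reads at 143 positions, 28.9% (27.6% to 30.2%), in ubp8Δ. A share below 1% in rpb4Δ and above 20% in ubp8Δ, a pattern chosen after seeing GLK1, was found in 2.59% of 4603 ORFs. HXK2 went the other way, with 19.7% (16.1% to 24.0%) in rpb4Δ and 13.8% (13.2% to 14.4%) in ubp8Δ. Its isoenzyme gene HXK1 had 6.25% in rpb4Δ on 2 reads, and 29.7% in ubp8Δ.

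Among the transporters, HXT1 had 4.50% (1.94% to 10.1%) in rpb4Δ and 19.9% (18.4% to 21.5%) in ubp8Δ, HXT2 had 9.30% in rpb4Δ and 27.0% in ubp8Δ, and HXT3 had 6.62% in rpb4Δ and 22.1% in ubp8Δ. HXT5 stood apart with 1.86% in rpb4Δ and 1.04% in ubp8Δ, and its intervals overlap. HXT4 had 14.3% on 3 reads in rpb4Δ and 28.0% in ubp8Δ. In HXT6 and HXT7, 45 ORF positions each are unique, and the only ORF read of the pair was 1 read of HXT7 in ubp8Δ. Repeats also cover 35.2% of the HXT3 ORF, 23.2% of HXT1 and 21.8% of HXT4.

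**Figure D5:**
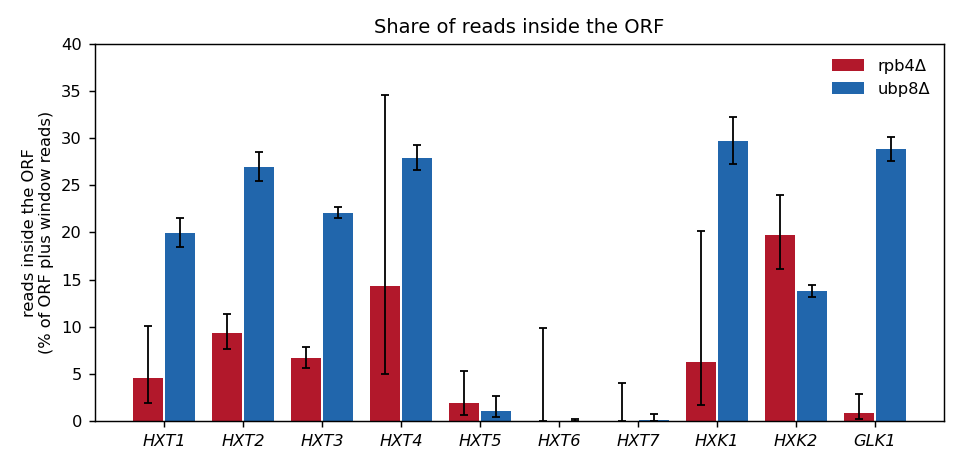
Reads inside the ORF as a percent of ORF and window reads for each gene, rpb4Δ (red, left) and ubp8Δ (blue, right), with 95% Wilson intervals. GLK1 stands at 0.803% in rpb4Δ and 28.9% in ubp8Δ, HXK2 is higher in rpb4Δ, and nearly all ORF positions of HXT6 and HXT7 are repeated.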

How the data were processed

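The 4 3′ READS samples (2 per strain) were pooled by the authors into 1 profile per strain, and the 8 NET-seq samples were not used here. The authors trimmed the Ts of the tail, aligned the next 17 bases to sacCer3 allowing unique, exact matches, and kept reads whose As are not encoded. Bowtie, cutadapt and TopHat2 are named in the submitters' processing notes, and their versions are not given in the sources used here. The authors describe Bowtie for 3′ READS, and cutadapt and TopHat2 for NET-seq. The deposited sums over the window and over the ORF, and the peak height, are in RPM, and single positions are deposited as a percent of that peak. The deposited percent of reads inside the ORF was recomputed. How the RPM were scaled is not given in the sources used here, and reading their common step as 1 read rests on the values: all 5311 rpb4Δ and 4301 ubp8Δ low values, up to 500 reads, were whole within 0.1 read. Reads at single positions, recovered from rounded percents, can sum to 1 more than the window.

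A site was any of the 400 nt with a read. Ratios have exact conditional binomial intervals, shares Wilson intervals and levels exact Poisson intervals, all at 95%. Sizes counted were 2-fold and 10 nt, with at least 20 window reads in both strains. With 1 pooled profile per strain, no count test was run. Sites expected at equal reads are hypergeometric expectations. Repeats and bases were read from R64, where all 10 genes have the coordinates of the profiles. All 10 genes are named, and pathway genes are named when past 2-fold. Other names were added after their values were seen. Genes and lists were chosen with earlier results of these data known. Python 3.11.15, numpy 2.4.6, pandas 2.3.3, scipy 1.17.1 and matplotlib 3.10.9 were used, and the functions were tested on simulated data. The sequence around 1 of the poly(A) sites is not reported here.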

Additional observations from a re-analysis of the deposited data

How the results depend on the processing

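No paired analysis was possible because the replicates of each strain were pooled, and leaving out a replicate was not run for the same reason. HXT2 and HXT5 were past 2-fold higher by window reads. Counting window plus ORF reads left 1 gene higher, and counting the highest position only left 1 higher and 3 lower. At least 10 nt downstream in rpb4Δ were 0 genes over positions 1 to 300, 2 by the weighted median and 2 without positions followed by a genomic A. Upstream were 1 over positions 1 to 300, 1 by the highest position and 2 without positions followed by an A. Dropping positions followed by an A left 5 to 10 rpb4Δ reads in HXK1, HXT7, HXT3 and HXT6 and 0 in HXT4, which then has no value. Fewer sites in rpb4Δ were seen in 5 genes among sites with at least 1% of the signal and in 3 at 5%. Repeated positions numbered 38 with 36 bases, and an efficiency word stood in 3 genes within 100 nt upstream of the site. Position differences turned sign in HXT6 (143.4 nt, and -12.4 nt over positions 1 to 300), HXK2 (-2.85 nt, and 4.67 nt with sites of at least 5% of the signal) and HXT3 (1.64 nt, and -75.4 nt without positions followed by an A). Over all ORFs, 808 were higher and 485 lower; with no minimum these were 999 and 934, at a fold of 1.5 they were 1374 and 935, by the highest position 1001 and 544, with ORF reads 545 and 684 and scaled to the median 663 and 612. The depth of rpb4Δ limits HXT4, HXK1 and HXT6, with 18, 30 and 35 reads. Without HXT6 and HXT7, an alternative chosen after seeing the data, 2 genes were higher and 4 lower, and the ORF share was lower in 6 (7 of all 10).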
